A study of Mus musculus with 4 samples.

Results

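Liver zonation was examined through 9 marker genes in the RNA sequencing of liver from mice on a steatohepatitis diet. The genes were taken by name, as 5 pericentral markers (Glul, Oat, Axin2, Lgr5 and Slc1a2) and 4 periportal markers (Hal, Sds, Gls2 and Cdh1), and all 9 were among the 24346 gene symbols of each library. Young adult male C57BL/6 mice received a diet high in fat, cholesterol and sucrose with bile salt (NASH diet) for 3 weeks, either without 7-ketocholesterol (control group, 2 libraries) or with it (7KC group, 2 libraries). 7-ketocholesterol (7KC) is a product of cholesterol oxidation that is taken up with food. All libraries were therefore from livers on the NASH diet, and a normal diet was not part of the comparison. Per the study, livers for sequencing were taken at the end of the diet period, before the step in which imiquimod cream was put on the skin. The sources do not say how many mice stand behind a library, so the spread between libraries may be technical as well as biological.

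A liver lobule runs from the portal tract, where blood enters, to the central vein, where it leaves, and hepatocytes express different genes along this axis. Around the central vein, Wnt proteins released by endothelial cells act through beta-catenin and maintain glutamine synthesis. Periportal hepatocytes break down amino acids, make urea and release glucose. The markers thus report on both ends of the lobule, but in RNA from whole liver fewer cells of a type and less RNA per cell cannot be told apart.

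Levels are given as FPKM, fragments scaled by transcript length and library depth, so that levels of different genes are comparable per length. The estimated depth was 13660000 to 17110000 mapped reads per library. Between the replicates, log2(FPKM + 0.5) correlated across the tested genes with r = 0.98 in the control group and 0.983 in the 7KC group, and genes are not independent replicates. Although these values were close, the control libraries differed from each other by up to 2.34-fold in the markers, and the marker genes are therefore described library by library. The hepatocyte genes Ttr, Apoa1 and Apoa2, which encode transport proteins secreted by hepatocytes, had 2792 to 15782 FPKM in all libraries.

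Promoters of 3 markers are shown because they stand for the pericentral and periportal patterns described here: Glul as the classical pericentral enzyme, Axin2 as a direct beta-catenin target and Hal as a periportal enzyme. The sequences are from RefSeq (GRCm38.p6) and cover 250 bases before to 50 bases after the gene start, 5′ to 3′. Of the 9 markers, 5 had an entry, the others being Oat and Slc1a2, and Lgr5, Sds, Gls2 and Cdh1 had none. Capitals mark matches on either strand to a TCF/LEF core (the letters CTTTGAA, also written with the ending GAT as CTTTGAT, with GTA as CTTTGTA and with GTT as CTTTGTT), a cyclic AMP response element (TGACGTCA and also TTACGTCA), a TATA box (TATAAA and also TATATA) or a CCAAT box (CCAAT, which reads as ATTGG on the other strand). No match to one of these motifs overlapped a match to another in the printed sequences.
Glul, chr1:153899679-153899978, plus strand: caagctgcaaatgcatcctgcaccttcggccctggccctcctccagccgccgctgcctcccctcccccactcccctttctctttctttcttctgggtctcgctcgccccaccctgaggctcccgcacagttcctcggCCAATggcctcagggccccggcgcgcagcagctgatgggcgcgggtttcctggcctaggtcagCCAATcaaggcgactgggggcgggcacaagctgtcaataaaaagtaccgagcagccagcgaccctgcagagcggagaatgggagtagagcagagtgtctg
Axin2, chr11:108920099-108920398, plus strand: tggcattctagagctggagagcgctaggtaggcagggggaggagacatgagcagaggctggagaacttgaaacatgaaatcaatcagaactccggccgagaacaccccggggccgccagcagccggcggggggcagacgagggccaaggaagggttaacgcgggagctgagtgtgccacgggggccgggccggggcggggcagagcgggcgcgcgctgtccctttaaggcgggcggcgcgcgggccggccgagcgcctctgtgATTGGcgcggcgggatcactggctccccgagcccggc
Hal, chr10:93488518-93488817, plus strand: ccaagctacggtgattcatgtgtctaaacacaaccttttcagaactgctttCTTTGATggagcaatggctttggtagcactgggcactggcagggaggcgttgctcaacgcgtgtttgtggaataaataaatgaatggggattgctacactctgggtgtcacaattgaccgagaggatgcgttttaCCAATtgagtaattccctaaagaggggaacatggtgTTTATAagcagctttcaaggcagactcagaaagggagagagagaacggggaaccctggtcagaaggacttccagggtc

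The Glul promoter held 2 CCAAT boxes, 113 and 50 bases before the start, and had a GC content of 64.3%. The Axin2 promoter had 70% GC and a single CCAAT box, on the opposite strand and 14 bases after the start. The Hal promoter had 47.7% GC and a CCAAT box 64 bases before the start. A TATA box on the opposite strand, read here as TTTATA, lay 28 bases before the start. The TCF/LEF letters CTTTGAT lay 199 bases before it. Over all 32851 promoter entries of this length, 37.4% held a CCAAT box, 17.1% a TATA box, 16.9% a TCF/LEF core and 2.28% a cyclic AMP response element, and the median GC content was 52.7%. A match describes these letters only, and the absence of a TCF/LEF core from the Glul and Axin2 windows says nothing about more distant sites.

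Among the pericentral markers, Glul and Slc1a2 had lower means in the 7KC group, Oat had a slightly higher mean, and Axin2 and Lgr5 were nearly level, but none passed the test. Glul (chr1:153899944-153909723, plus strand) encodes glutamine synthetase, which fixes the ammonia that escapes periportal urea synthesis. It was at 391.8 and 474.1 FPKM in control replicates 1 and 2, and at 320.1 and 347.3 FPKM in 7KC replicates 1 and 2. Both 7KC libraries lay below both control libraries, and the means were 433 ± 58.2 and 333.7 ± 19.2 FPKM (SD, n = 2 each). The log2 change, 7KC minus control on the log2(FPKM + 0.5) scale, was -0.37 (95% interval -0.76 to 0.02, limma adjusted p 0.297).

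Oat (chr7:132557478-132576398, minus strand) encodes ornithine aminotransferase, which links ornithine to glutamate in the same cells. Its level was 432.1 and 493.3 FPKM without 7KC and 515.5 and 524.5 FPKM with 7KC. Here the 7KC values exceeded both controls, by a small margin, so that Glul and Oat pointed in opposite directions. The log2 change of Oat was 0.17 (95% interval -0.19 to 0.53, limma adjusted p 0.564). Within each library the ratio of Glul to Oat was 0.907 and 0.961 in the controls and 0.621 and 0.662 in the 7KC group. This ratio does not depend on the scaling of a library, and its groups did not overlap, although an exact permutation test of 2 libraries against 2 cannot give a 2-sided p below 0.333. The pair was picked out after its values were seen.

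Slc1a2 (chr2:102658659-102790784, plus strand) encodes a high-affinity glutamate transporter of pericentral hepatocytes. It had 40.2 and 63.4 FPKM without 7KC and 38.4 and 41.0 FPKM with 7KC. Only control replicate 2 stood apart, and control replicate 1 lay between the 7KC libraries. The log2 change was -0.34 (95% interval -0.92 to 0.23, limma adjusted p 0.471), but leaving out control replicate 1 gave -0.67 (adjusted p 0.103) and leaving out control replicate 2 gave -0.02.

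Axin2 and Lgr5 are read-outs of Wnt signaling at much lower levels. Axin2 (chr11:108920349-108950783, plus strand) encodes a scaffold that limits beta-catenin and is itself induced by it. It had 1.06 and 1.24 FPKM without 7KC and 0.859 and 1.3 FPKM with 7KC, which enclosed the controls. Lgr5 (chr10:115450311-115587780, minus strand) encodes an R-spondin receptor that strengthens Wnt signaling. It had 0.489 and 0.958 FPKM without 7KC and 0.869 and 0.528 FPKM with 7KC, with 1 high and 1 low library in each group. If all reads came from the longest annotated transcript, these values stand for 48 to 74 reads of Axin2 and 33 to 61 reads of Lgr5 per library. From counting error, the coefficient of variation is 14.4% for the fewest reads of Axin2 and 17.4% for those of Lgr5. Their log2 changes were -0.08 (95% interval -0.62 to 0.46, limma adjusted p 0.88) and -0.02 (95% interval -0.74 to 0.70, adjusted p 0.978). The intervals leave room for a difference in either direction.

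**Figure D1:**
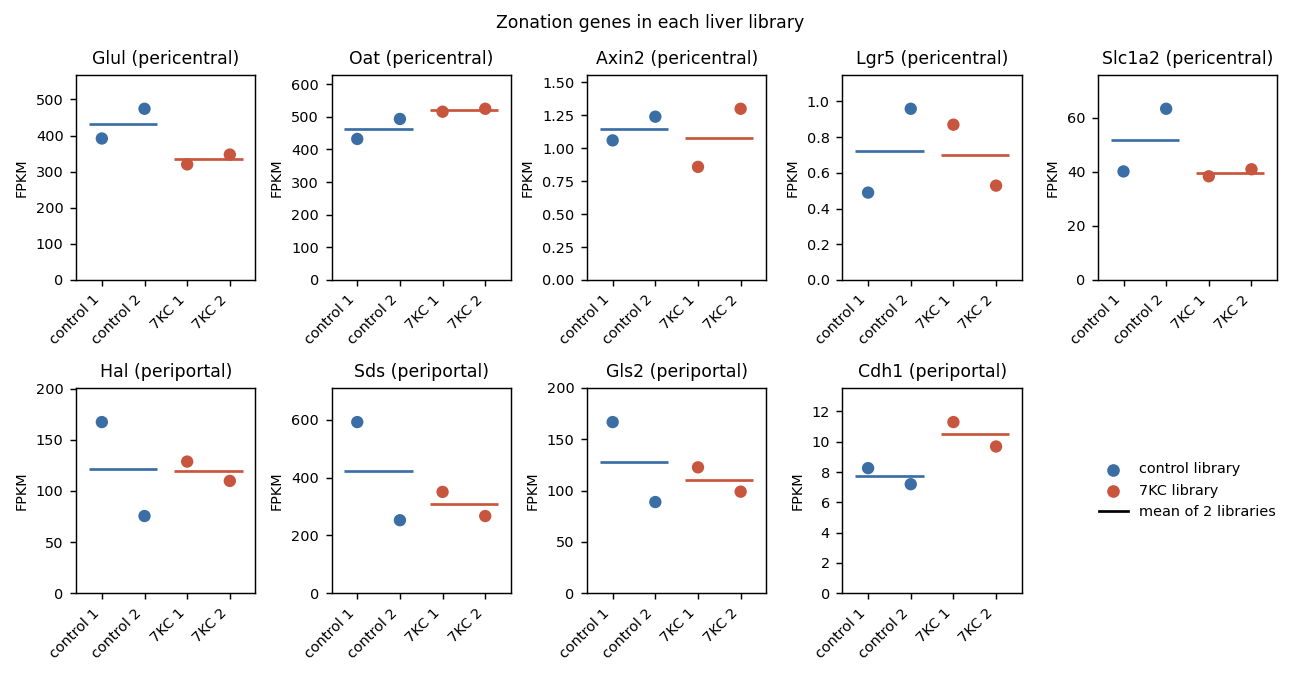
FPKM (vertical axes, from 0) of the 9 zonation genes in each control (blue) and 7KC (red) library, with a line at the mean of each group of 2 libraries. Glul was lower and Oat and Cdh1 were higher in both 7KC libraries, while Hal, Sds and Gls2 were highest in control 1 and lowest in control 2.

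Among the periportal markers, Hal, Sds and Gls2 differed more between the control libraries than between the groups, whereas Cdh1 was higher in both 7KC libraries. Hal (chr10:93488768-93519304, plus strand) encodes histidine ammonia-lyase, the first enzyme of histidine breakdown. It was at 167.3 and 75.5 FPKM in control replicates 1 and 2 and at 128.7 and 109.8 FPKM in 7KC replicates 1 and 2. The 7KC libraries thus lay between the controls, and the group means were 121.4 ± 64.9 and 119.3 ± 13.3 FPKM (SD, n = 2 each). The log2 change was 0.08 (95% interval -0.87 to 1.03, limma adjusted p 0.93).

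Sds (chr5:120476526-120483932, plus strand) encodes serine dehydratase, which turns serine into pyruvate for glucose synthesis. It had 591.6 and 252.5 FPKM without 7KC and 350.3 and 266.9 FPKM with 7KC. Again both 7KC libraries fell inside the range of the controls. The log2 change was -0.34 with an interval of -1.39 to 0.71, the widest of the 9 genes (limma adjusted p 0.705).

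Gls2 (chr10:128194457-128210004, plus strand) encodes liver glutaminase, the periportal counterpart of glutamine synthetase. Its level was 166.8 and 88.9 FPKM without 7KC and 122.7 and 99.0 FPKM with 7KC, in the same order as for Hal and Sds. The log2 change was -0.14 (95% interval -0.94 to 0.65, limma adjusted p 0.846).

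Cdh1 (chr8:106603351-106670246, plus strand) encodes E-cadherin, the adhesion protein of periportal hepatocytes and of bile duct cells. It had 8.26 and 7.2 FPKM without 7KC and 11.3 and 9.69 FPKM with 7KC. Both 7KC libraries lay above both controls, with means of 7.73 ± 0.749 and 10.5 ± 1.15 FPKM (SD, n = 2 each). The log2 change of 0.42 (95% interval 0.07 to 0.77) had an unadjusted limma p of 0.0276 and an adjusted p of 0.223, and so did not pass. The bile duct markers Epcam, Krt7 and Krt19 were at 0.317 to 1.5 FPKM in all libraries and 0 of the tested ones were called, with Krt19 at 1.5 and 1.42 FPKM in the controls and at 1.12 and 1.24 FPKM in the 7KC group and Epcam at 0.847 and 0.7 FPKM against 0.549 and 1.13 FPKM. Sox9, a transcription factor of bile duct cells, was above both controls in both 7KC libraries, at 1.0 and 0.913 FPKM against 1.05 and 1.66 FPKM (log2 change 0.33, limma adjusted p 0.481). Cdh2, the gene of N-cadherin, which hepatocytes also carry, had a log2 change of -0.19 (limma adjusted p 0.46).

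Over the 12299 genes tested with limma, 0.504% were called, that is, had an adjusted p under 0.05 in either direction. Of the 9 zonation genes, all of which entered the test, 0 were called. At an unadjusted p under 0.05 there was 1 (Cdh1), and 17.8% of all tested genes reached this level. Both 7KC libraries lay above both controls for 2 of the 9 (Oat and Cdh1), against 25.1% of all tested genes, and below them for 1 (Glul), against 27.4%. Neither share was above its background. The median log2 change was -0.08 for the 5 pericentral and -0.03 for the 4 periportal genes, beside -0.03 over all tested genes. With libraries brought to an equal sum of FPKM these medians were 0.07, 0.17 and 0.17. On the log2 scale 1 of 5 pericentral and 2 of 4 periportal genes were higher in the 7KC group. One of these, Hal, had a positive log2 change (0.08) but a ratio of group means of 0.983, so that its sign depended on the scale.

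**Figure D2:**
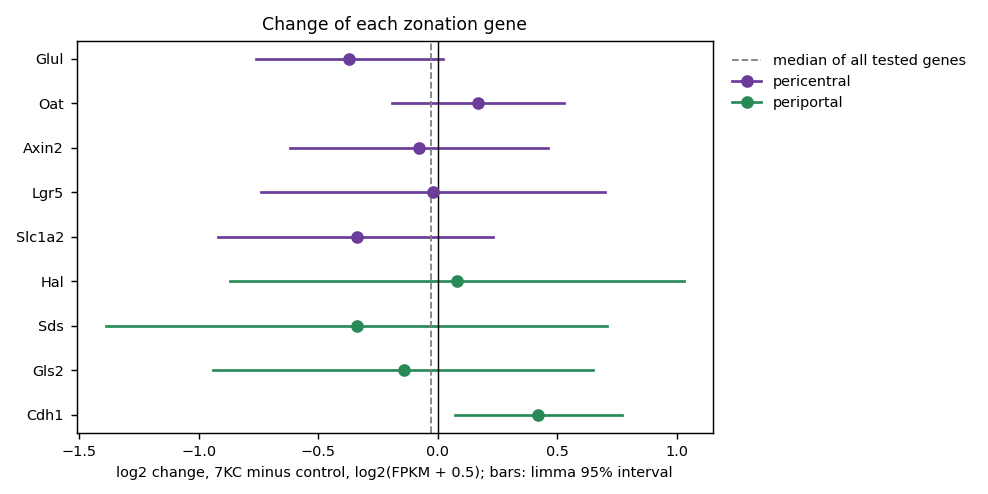
Log2 change of each zonation gene, 7KC minus control on the log2(FPKM + 0.5) scale (horizontal axis), with limma 95% intervals and a dashed line at -0.03, the median of all tested genes. Only the interval of Cdh1, 0.07 to 0.77, does not include 0, before adjustment for the number of genes.

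By mean level in the control group, the order was Oat, Glul, Sds, Gls2, Hal, Slc1a2, Cdh1, Axin2 and Lgr5. Oat, Glul and Sds, at 462.7 ± 43.3, 433 ± 58.2 and 422 ± 239.8 FPKM (SD, n = 2), did not differ beyond their spread, nor did Gls2 and Hal at 127.9 ± 55.1 and 121.4 ± 64.9 FPKM. In the 7KC group Oat, at 520 ± 6.42 FPKM, stood clear of Glul, at 333.7 ± 19.2 FPKM, and Sds followed at 308.6 ± 59 FPKM.

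The pattern that ran through the periportal enzymes was one of single libraries. Hal, Sds and Gls2 all had the order control replicate 1, 7KC replicate 1, 7KC replicate 2, control replicate 2 from high to low. Among all tested genes 3.25% held this order. The order was chosen after the values of these genes were seen, so that share does not measure how unusual they are. Genes outside the zonation lists, such as Krt8, Krt18 and Cd79a, held it too. Control replicate 1 exceeded control replicate 2 by 2.22-fold in Hal, 2.34-fold in Sds and 1.88-fold in Gls2, and 3.26% of all tested genes were at least 2-fold higher in the former. All 5 pericentral genes had the opposite sign within the control group, with ratios of replicate 1 to replicate 2 between 0.511 in Lgr5 and 0.876 in Oat. Over all tested genes 53.9% were higher in replicate 1. Axin2 and Lgr5 rest on few reads here. For Axin2, at 0.852 from an estimated 74 and 70 reads, the difference is within counting error. Between the 7KC libraries the same enzymes differed in the same direction by 1.17-fold in Hal, 1.31-fold in Sds and 1.24-fold in Gls2. This direction was not particular to periportal genes. In the lists described below, the median log2 difference, 7KC replicate 1 minus 2, was 0.23 for other periportal genes and 0.11 for other pericentral genes. It was 0.23 for hepatocyte genes of no chosen zone and 0.01 over all tested genes.

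Ratios within a library compare the markers without regard to the scaling of a library. Hal over Gls2 was 1.0 and 0.849 without 7KC and 1.05 and 1.11 with 7KC, a range of 1.31-fold. Sds over Gls2 ranged over 1.32-fold. Hal over Sds ranged over 1.46-fold, at 0.283 and 0.299 in the controls and 0.367 and 0.412 in the 7KC group. Neither Hal over Sds nor Hal over Gls2 overlapped between the groups. The limit of the permutation test given for Glul over Oat applies to these ratios too. The pericentral pair Glul over Slc1a2 ranged over 1.3-fold. Across the zones, Glul over Hal was 2.34 and 6.28 without 7KC and 2.49 and 3.16 with 7KC. Glul over Sds ranged over 2.84-fold, from 0.662 in control replicate 1 to 1.88 in control replicate 2.

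The mean log2 level of the 5 pericentral genes minus that of the 4 periportal genes was taken as a contrast within each library. It was -2.11 and -0.88 without 7KC and -1.79 and -1.46 with 7KC. Both 7KC libraries fell between the controls, and the group means of -1.49 ± 0.87 and -1.63 ± 0.23 (SD, n = 2) differed by -0.13. The balance between pericentral and periportal genes therefore differed by less between the groups than between the control libraries.

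**Figure D3:**
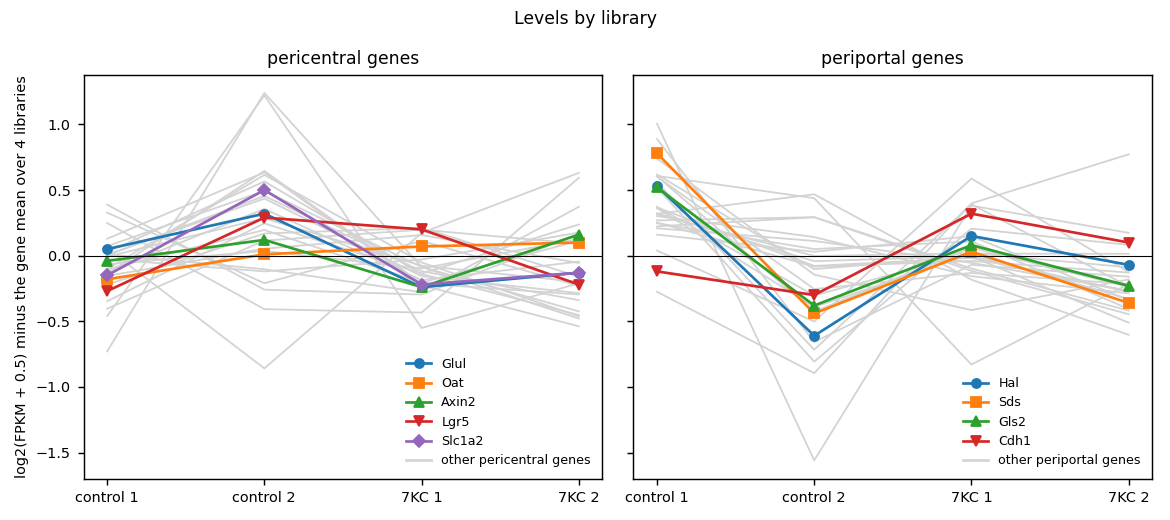
Log2(FPKM + 0.5) minus the mean of each gene over the 4 libraries (vertical axis) for pericentral (left) and periportal (right) genes, with the 9 markers in color and other zonated genes in grey. Hal, Sds and Gls2 run from 0.53, 0.78 and 0.52 in control 1 to -0.61, -0.44 and -0.38 in control 2.

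Other genes with a known zone were examined as 2 further lists. Of 24 other periportal genes, 21 were higher in control replicate 1 than in control replicate 2, with a median difference of 0.49 on the log2 scale. Of 23 other pericentral genes, 17 were lower in control replicate 1, with a median difference of -0.42, beside 0.02 over all tested genes. Cyp2f2, a cytochrome P450 that marks periportal hepatocytes, had 552.6 and 227.9 FPKM without 7KC and 491.6 and 318.4 FPKM with 7KC. Pck1, the enzyme that commits carbon to glucose synthesis, had 2384 and 1166 FPKM in the controls and 1635 and 1328 FPKM in the 7KC group. Both repeated the order of Hal, Sds and Gls2. That order was shared by 8 of the 24 genes and by none of the 23, beside 3.25% of all tested genes. It was taken from the same libraries, so these counts give no separate support for it. Cyp2e1, a pericentral cytochrome P450, ran the other way in the controls, at 3962 and 6822 FPKM, and had 3766 and 3551 FPKM in the 7KC libraries. Cyp1a2, of the same zone, had 203.5 and 334.8 FPKM in the controls and 210.7 and 158.4 FPKM in the 7KC group.

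Between the groups, limma called 0 genes of either list. At an unadjusted p under 0.05 there were 3 of 23 pericentral and 6 of 24 periportal genes, beside 17.8% of all tested genes. The median log2 change was -0.13 for the pericentral list, which turned to 0.03 once all libraries had an equal sum of FPKM, and -0.28 for the periportal list, which became -0.08 on that scale. Without control replicate 1 the periportal median was -0.08 and without control replicate 2 it was -0.48, while the pericentral median was -0.24 and 0.01. Both 7KC libraries lay below both controls for 7 genes of each list and above them for 1 gene of each. Over all tested genes these shares were 27.4% and 25.1%. G6pc, the last enzyme of glucose release, had 348.5 and 309.8 FPKM without 7KC and 128.4 and 196.7 FPKM with 7KC (log2 change -1.05, SE 0.23, limma adjusted p 0.109). Ctsc, a lysosomal protease that is also abundant in leukocytes, had means of 51.5 ± 15.5 FPKM in the control and 114.8 ± 21.0 FPKM in the 7KC group, without overlap of the libraries (log2 change 1.17, SE 0.25, limma adjusted p 0.103). Among pericentral genes the smallest p belonged to Cyp2c29, whose log2 change was -0.76 (limma adjusted p 0.192), and Pon1, a secreted esterase, followed at -0.59 (adjusted p 0.272).

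**Figure D4:**
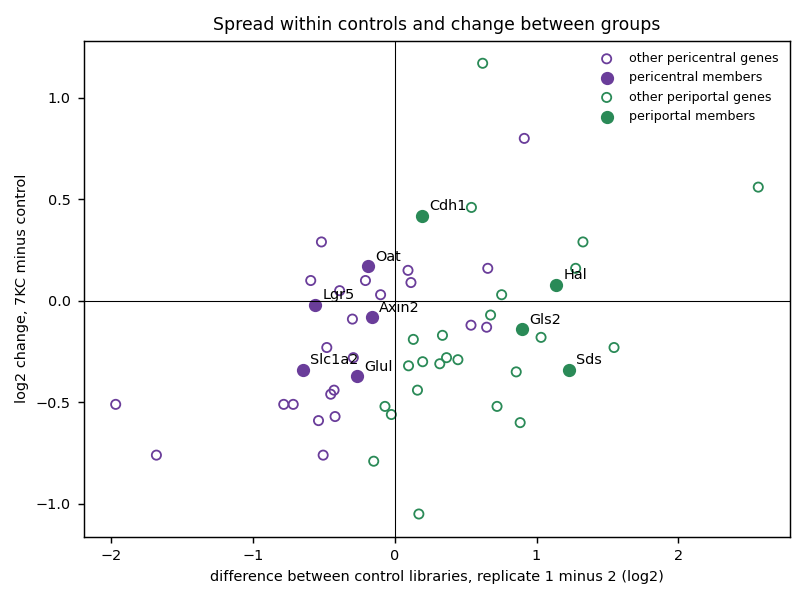
Difference between the control libraries, replicate 1 minus replicate 2 (horizontal axis, log2), against the log2 change, 7KC minus control (vertical axis), for the markers (filled) and the other pericentral and periportal genes (open). Periportal genes lie mostly to the right and pericentral genes mostly to the left of 0, with both kinds on either side of 0 on the vertical axis.

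The Wnt pathway, which sets the pericentral program, was then followed from ligand to target. Of 9 Wnt ligand and R-spondin genes 4 passed the filter on low values. None of these was called or had an unadjusted limma p under 0.05, a level reached by 17.8% of all tested genes. Rspo3, the R-spondin of central vein endothelium, had 2.34 and 3.32 FPKM in the controls and 2.19 and 2.31 FPKM in the 7KC libraries. Wnt2, a ligand of sinusoidal endothelium, had 1.89 and 1.62 FPKM in the controls and 1.18 and 1.7 FPKM in the 7KC group, and Wnt9b had 0.555 to 0.672 FPKM in all libraries. Of 10 tested receptor genes and 15 tested genes of the beta-catenin core, limma called 0. At an unadjusted p under 0.05 there were 0 and 1, beside the same 17.8% of all tested genes. The receptor Fzd4 was at 6.40 to 6.67 FPKM in all libraries. Ctnnb1, which encodes beta-catenin itself, had 68.4 and 70.4 FPKM in the controls and 63.1 and 65.5 FPKM in the 7KC group (log2 change -0.11, limma adjusted p 0.622). The member of the core with the smallest p was Bcl9, a coactivator of beta-catenin, at 1.16 and 1.28 FPKM against 1.81 and 1.82 FPKM (adjusted p 0.252).

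Of the 10 tested feedback and target genes of the pathway, 5 were lower and 5 were higher in the 7KC group, and limma called 0. At an unadjusted p under 0.05 there were 3 (Notum, Rnf43 and Ccnd1), beside 17.8% of all tested genes. Notum, which encodes an enzyme that inactivates Wnt proteins, had 14.8 and 17.0 FPKM without 7KC and 12.7 and 10.6 FPKM with 7KC (log2 change -0.43, limma adjusted p 0.222). Rnf43, a ubiquitin ligase that removes Wnt receptors, had 4.45 and 4.84 FPKM in the controls and 2.69 and 3.68 FPKM in the 7KC group (-0.49, adjusted p 0.242). For its relative Znrf3 the log2 change was -0.27 and for the feedback inhibitor Nkd1 it was -0.31 (adjusted p 0.393 and 0.436). These 4 genes had both 7KC libraries below both controls, and 3 genes had them above, namely Ccnd1, Sp5 and Sfrp1. Over all tested genes 27.4% lay below and 25.1% above. Ccnd1, which encodes the cell cycle regulator cyclin D1, had 11.8 and 4.69 FPKM in the controls and 15.1 and 17.1 FPKM in the 7KC group (1.05, SE 0.40, limma adjusted p 0.269), the largest change of the list. Sp5 and Sfrp1, at under 1 FPKM in all libraries, had changes of 0.14 and 0.26. The median of the list was -0.03, and 0.13 at an equal sum of FPKM.

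Genes around the enzymes of glutamine, histidine and serine metabolism gave the setting of Glul, Oat, Slc1a2, Gls2, Hal and Sds. Of 18 tested genes of glutamine and glutamate handling, limma called 0, while 10 had an unadjusted p under 0.05, beside 17.8% of all tested genes. Both 7KC libraries lay above both controls for 5 and below them for 8, beside 25.1% and 27.4% of all tested genes. The median log2 change of the list was -0.27, and -0.07 at an equal sum of FPKM. Slc1a3, a glutamate transporter related to Slc1a2, was at 0.363 and 0.396 FPKM in the controls and at 1.12 FPKM in both 7KC libraries (log2 change 0.88, SE 0.19, limma adjusted p 0.104). Glud1, the mitochondrial glutamate dehydrogenase, had 351.4 and 389.5 FPKM in the controls and 258.9 and 272.2 FPKM in the 7KC group (-0.48, SE 0.13, adjusted p 0.162). Got1, an aspartate aminotransferase, had 395 and 428.2 FPKM in the controls and 279.5 and 180.5 FPKM in the 7KC group (-0.87, SE 0.23, adjusted p 0.155).

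Downstream of Hal, the log2 change was -0.07 for Uroc1, -0.33 for Amdhd1 and -0.17 for Ftcd, all enzymes of histidine breakdown (adjusted p by limma 0.906, 0.486 and 0.596). Uroc1, the enzyme that follows Hal, was at 139.1 and 86.9 FPKM in the controls and at 108.9 and 100.9 FPKM in the 7KC libraries, in the library order of Hal. In the list of histidine and serine genes, limma called 0 of 11. At an unadjusted p under 0.05 there were 2, Shmt1 and Srr (log2 changes -0.40 and -0.30), beside 17.8% of all tested genes. The 8 urea cycle genes, several of which are also in the periportal list, had log2 changes between -0.60 and -0.28, with a median of -0.39 that became -0.19 at an equal sum of FPKM. Limma called 0 of them, 4 had an unadjusted p under 0.05, and both 7KC libraries lay below both controls for 6. Over all tested genes the latter shares were 17.8% and 27.4%. Asl had 606.3 and 616.7 FPKM in the controls and 464.4 and 369.2 FPKM in the 7KC group (-0.56, SE 0.16, adjusted p 0.186), and for Cps1 the log2 change was -0.52 (SE 0.18, adjusted p 0.239). Between the control libraries the urea cycle genes differed less than Hal, Sds and Gls2, with ratios of replicate 1 to replicate 2 of 0.953 in Cps1 to 1.35 in Slc25a15, and 6 of the 8 were higher in replicate 1.

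The levels of hepatocyte genes and of markers of other cells are given here beside those of the zonation genes, and limma called 0 genes of these lists. In hepatocyte genes of no chosen zone, 14 tested genes had a median log2 change of -0.44. Both 7KC libraries lay below both controls for 12 of them, against 27.4% of all tested genes. The median of the hepatocyte genes was -0.23 at an equal sum of FPKM and -0.27 without 7KC replicate 2. Their summed level was 54920 and 60688 FPKM in the controls and 45187 and 36255 FPKM in the 7KC group. Limma called 0 of them, with 2 at an unadjusted p under 0.05 (Apoh and Serpinc1), beside 17.8% of all tested genes. Monocyte and macrophage genes had a median of 1.23, which was 1.61 without 7KC replicate 1 and 0.78 without 7KC replicate 2. Both 7KC libraries lay above both controls for 10 of 15, against 25.1% of all tested genes, and below them for Vsig4 (-0.41). The groups overlapped for Clec4f (-0.03), Adgre1 (0.73), Trem2 (1.11) and Gpnmb (1.46). The list had a summed level of 600.2 to 847.8 FPKM in the controls and 1418 to 2208 FPKM in the 7KC group. Ly6c2 and Itgam had the smallest p (log2 changes 2.40 and 1.67, limma adjusted p 0.0523 and 0.0596), and the defining markers Adgre1, Cd68 and Csf1r were at 9.93 FPKM or more in all libraries. T and NK cell genes had a median of 1.26, with 11 of 11 above the controls, beside the same 25.1%. Their summed levels were 18.1 and 26.3 FPKM in the controls and 56.6 and 62.2 FPKM in the 7KC group. Limma called 0 genes of both lists, with 10 of 15 and 11 of 11 at an unadjusted p under 0.05, beside 17.8% of all tested genes. Endothelial genes, a source of Wnt proteins, had a median of -0.02. It was 0.26 without 7KC replicate 1, -0.27 without 7KC replicate 2 and 0.17 at an equal sum of FPKM. The groups were separated for 0 of 11, beside 25.1% of all tested genes with 7KC above and 27.4% with 7KC below. Stellate cell genes had a median of -0.20, and the list of bile duct and epithelial junction genes, which hepatocytes express in part, had -0.07. B cell, neutrophil and erythroid genes had medians of 0.39, 0.51 and -0.34 over 3, 3 and 2 tested genes. Without control replicate 1 these were 1.04, 0.76 and -0.03, and without control replicate 2 they were -0.26, 0.13 and -0.65. The part of these cells in the values of the zonation genes was not tested.

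**Figure D5:**
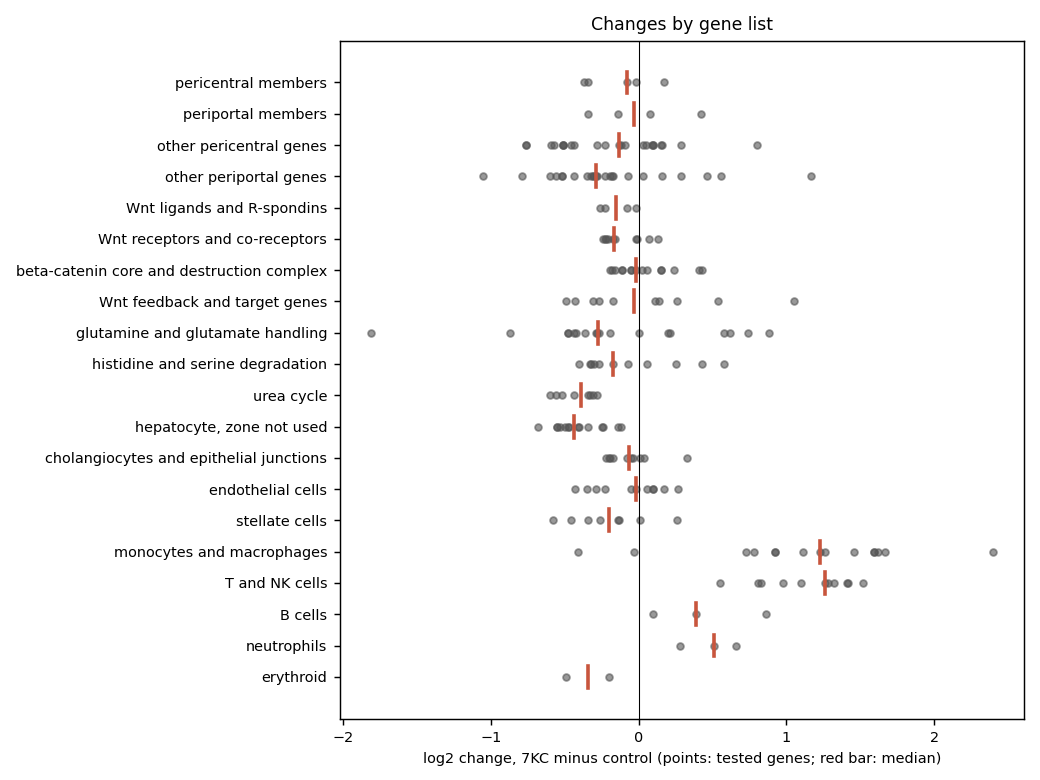
Log2 change, 7KC minus control (horizontal axis), of the tested genes of each list (points) with the median of the list (red bar). The medians of the pericentral and periportal members are -0.08 and -0.03, that of hepatocyte genes of no chosen zone is -0.44, and those of monocyte and macrophage and of T and NK cell genes are 1.23 and 1.26.

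To set the markers against hepatocyte RNA, each library was divided by the geometric mean of the hepatocyte list, a scaling added after the data were seen. The list stood at 1.1 and 1.2 in the controls and 0.956 and 0.79 in the 7KC libraries, relative to their geometric mean. This scaling moved the median of all tested genes from -0.03 to 0.34 and raised the share called by limma to 9.99%. On this scale Glul had a log2 change of 0.03 and Slc1a2 of 0.06, against -0.37 and -0.34 on the deposited scale. Oat had 0.58 (SE 0.18, limma adjusted p 0.068) and Cdh1 0.80 (SE 0.21, adjusted p 0.0373), and Cdh1 was the 1 zonation gene of 9 that was called. The scaling adds nearly the same amount to every well-expressed gene, so the signs on it are set by the sizes of the changes on the deposited scale and give no separate evidence of direction.

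For each marker except Sds, the 2 genes with the most similar profile over the 4 libraries were sought among all tested genes, by the Euclidean distance of centred log2(FPKM + 0.5) values. They were 2900026A02Rik and Aga for Glul (distances 0.0309 and 0.0379), Tjap1 and Mpi for Oat (0.0203 and 0.0294) and Dhx33 and Zfp105 for Slc1a2 (0.0541 and 0.0567). Asrgl1 and Atr were nearest to Axin2 (0.0302 and 0.0328), and Adipor2 and Gm16973 to Lgr5 (0.0516 and 0.0581). For the periportal genes they were Steap2 and Mir703 for Hal (0.0874 and 0.0943), Pim3 and Slc25a22 for Gls2 (0.0543 and 0.0562) and Phc2 and Txn1 for Cdh1 (0.0495 and 0.0535). With 4 libraries many genes lie close to any profile. Among the markers themselves, the shortest distances were 0.267 between Glul and Slc1a2 and 0.287 between Hal and Gls2. Slc25a22, a mitochondrial glutamate carrier, had 179.4 and 100.3 FPKM in the controls and 136.6 and 107.1 FPKM in the 7KC libraries, near the values of Gls2.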

How the data were processed

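RNA sequencing of liver from the control group (NASH diet) and the 7KC group (NASH diet with 7KC) was analysed, with 2 libraries per group, as labelled. Libraries were stranded and made from mRNA, with single-end reads of 75 bases. FPKM values were deposited by the authors, 1 value per gene symbol and library. Per the submitters' processing notes, reads were mapped to mm10 with TopHat2 2.1.1, Bowtie2 2.2.8 and SAMtools 0.1.18, and FPKM came from Cuffdiff 2.2.1, while the methods name other releases of the mapping tools. The annotation and the settings for strand and multi-mapped reads are not given in the sources used here. FPKM is relative to all mapped reads, so a change in abundant genes moves all others, and shared reads of related genes can be split.

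The 12299 genes whose mean reached 0.5 FPKM were compared as log2(FPKM + 0.5) with limma 3.58.1 in R 4.3.3, with the group as the only term and a prior variance that follows the mean level (residual and prior degrees of freedom 2 and 3.271). Adjustment was by Benjamini-Hochberg over all tested genes, with a threshold of 0.05. Log2 changes on this scale understate those of low genes. The fit was tested on simulated data. Depth was estimated for each library as the number of mapped reads at which most low values of single-transcript genes became whole reads (73.8% to 76% of values of up to 10 reads within 0.1 read, against a median of 13% to 13.8% over all depths tried), with GENCODE M21 lengths less 200 bases. Positions are from GENCODE M21, on the same build (GRCm38, mm10).

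The markers and lists were chosen with earlier results of these data known. The text names all 9 markers. For each other list it draws on the genes past the threshold, the 2 with the smallest p and the first 3 of the list. For each marker it names its 2 nearest genes. Some genes that this rule takes, those nearest to Sds among them, are not reported here. Any other gene named was chosen after its values were seen. Alternatives covered the pseudocount, the filter, the scaling, the prior variance, a replicate block and leaving out each library.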

Additional observations from a re-analysis of the deposited data

How the results depend on the processing

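The crossed pairing aside, for which genes were counted over the whole table alone, none of the 9 zonation genes passed the threshold under the alternatives run except Cdh1 (adjusted p 0.0373) when libraries were rescaled by the hepatocyte list, a setting chosen after seeing the data that gave 1 call. Glul, Oat, Slc1a2 and Cdh1 kept their direction under all settings except the rescaling by the hepatocyte list (which turned Glul and Slc1a2), with log2 changes of -0.51 to -0.16 for Glul, -0.67 to -0.02 for Slc1a2 and, over all alternatives, 0.08 to 0.58 for Oat and 0.31 to 0.80 for Cdh1. Rescaling by the hepatocyte list turned Glul to 0.03, Slc1a2 to 0.06, Axin2 to 0.21, Lgr5 to 0.21, Sds to 0.07 and Gls2 to 0.26, and the pericentral median to 0.21. Rescaling to the same sum turned Axin2 to 0.07, Lgr5 to 0.12 and Gls2 to 0.06, and moved the median of all genes to 0.17. A mean of at least 5 FPKM removed Axin2 and Lgr5 and brought the pericentral median to -0.34, and Lgr5 was also below a mean of 1 FPKM.

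Single libraries decided the direction of several genes. Without control replicate 1, Hal was at 0.65, Sds at 0.28 and Gls2 at 0.31. Without control replicate 2, Hal was at -0.49, Sds at -0.95, Gls2 at -0.60, Axin2 at 0.00 and Lgr5 at 0.26. Without 7KC replicate 1, Axin2 was at 0.12 and Hal at -0.03, and without 7KC replicate 2, Axin2 was at -0.28, Lgr5 at 0.19 and Gls2 at 0.01. Over these settings the pericentral median ranged from -0.30 to 0.00, the periportal median from -0.54 to 0.41 and the contrast within libraries from -0.75 to 0.48.

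Over all genes, 59 were higher and 3 lower. These counts were 111 higher with a pseudocount of 1 FPKM, 0 and 1 without a filter (limma, 2634 at an unadjusted p under 0.05), 402 and 7 when rescaled to the same sum, 94 higher by the median ratio, and 39 and 1 without a trend in the prior variance. Leaving out a library gave 2 to 389 higher and 1 to 52 lower. Among the 194 tested genes of the other lists, 0 passed in either direction, with 9 higher at the same sum, 2 higher by the median ratio, and 0 to 17 higher and 0 to 3 lower with a library left out. With the replicate block in limma 0 of all genes were higher and 0 lower, with 1851 at an unadjusted p under 0.05, and no zonation gene passed. The numbers are not said to pair the mice, and the differences between replicates 1 and 2 correlated at -0.141 between the groups across genes. The crossed pairing, added after seeing the data, gave 551 higher and 37 lower. The cause of these shifts was not tested.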

Other observations

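Control replicate 2 stood apart in further genes of the zonation and amino acid lists, chosen after their values were seen. Asns, which encodes asparagine synthetase, had 20.0 FPKM there, against 0.372 FPKM in control replicate 1 and 0.592 and 0.839 FPKM in the 7KC replicates. Cyp7a1, the rate-limiting enzyme of bile acid synthesis, had 55.9 FPKM in control replicate 2, against 13.9 FPKM in control replicate 1 and 22.0 and 17.3 FPKM in the 7KC replicates. Hsd17b6, a hydroxysteroid dehydrogenase of the periportal list, ran the other way, at 48.1 FPKM in control replicate 2, against 287 FPKM in control replicate 1 and 186 and 161.1 FPKM in the 7KC replicates. The group difference of these genes rests on a single control library.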
